A study of Mus musculus with 4 samples.

Results

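Glucose production by the liver was described here through 7 genes, Pck1, G6pc, Fbp1, Pcx, Pklr, Slc2a2 and Ppargc1a, taken by symbol from a table of 24138 genes. All 7 had a row. Levels are in FPKM, fragment counts scaled for transcript length and for library size, and all 7 were among the 10541 genes counted as expressed, whose average over the livers reached 1 FPKM. The values come from bulk RNA sequencing of 4 livers from C57BL/6J mice, all male and 18 weeks old. Every animal had been fed the FAT-MASH diet, a model of MASH (steatohepatitis of metabolic origin, in which the liver is fatty and inflamed), and every animal had been treated with resolvin D1 (RvD1), a lipid mediator of the resolution of inflammation. The 4 livers, numbered 1 to 4 as in their titles, formed 1 group. No livers without the diet or without RvD1 were analysed here, so the values describe levels and their spread between animals and carry no effect of either. Neither the feeding state nor the hour at which the tissue was taken was given in the sources used here.

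Gluconeogenesis makes glucose from lactate, pyruvate, glycerol and amino acids, and the liver uses it to hold blood glucose between meals. Most of its steps run glycolysis backwards, and separate enzymes bypass the irreversible steps of glycolysis. Pyruvate carboxylase (Pcx) turns pyruvate into oxaloacetate in mitochondria, phosphoenolpyruvate carboxykinase (Pck1) turns oxaloacetate into phosphoenolpyruvate, fructose-bisphosphatase (Fbp1) removes a phosphate from fructose 1,6-bisphosphate, and glucose-6-phosphatase (G6pc) releases free glucose. Pklr encodes liver pyruvate kinase, which runs the last step of glycolysis against Pck1, and Slc2a2 encodes the glucose transporter GLUT2 of the hepatocyte surface. Ppargc1a encodes PGC-1 alpha, a coactivator that raises transcription of Pck1 and G6pc in fasting. Glucagon acts on Pck1, G6pc and Ppargc1a through cyclic AMP, and insulin acts against it.

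The promoters of 4 members are shown for reference beside their values in liver 3, where each had its lowest or highest level, as 58.1% of expressed genes did. Fbp1 and Ppargc1a also had their lowest value there and are not shown. Fbp1 differed by under 1% from livers 1 and 4, and the listed promoter of Ppargc1a lies outside its deposited span. The choice rests on small differences too, since Pklr was 1.08-fold above the next liver. The sequences were taken from a RefSeq promoter table (GRCm38.p6), in which all 7 symbols were found, and no run overlaps an annotated GENCODE exon of these genes. The runs of Pck1, Slc2a2 and G6pc lie before the start of the gene's annotated transcripts. That of Pklr lies in the first intron of the transcript that starts upstream (at position 89136142) and ends just before the start of the next (89136572). The stretch of Pck1 is chr2:173152823-173153047, that of Slc2a2 chr3:28697653-28697902, that of G6pc chr11:101367466-101367560 and that of Pklr chr3:89136373-89136571, all on the plus strand. Capitals mark letters that matched a motif searched on both strands: TGACG (the core of the cyclic AMP response element, printed here as its reverse complement) in Pck1, TGTTTTG (a core of insulin response sequences) in G6pc, and the carbohydrate response element consensus in Pklr.
Pck1: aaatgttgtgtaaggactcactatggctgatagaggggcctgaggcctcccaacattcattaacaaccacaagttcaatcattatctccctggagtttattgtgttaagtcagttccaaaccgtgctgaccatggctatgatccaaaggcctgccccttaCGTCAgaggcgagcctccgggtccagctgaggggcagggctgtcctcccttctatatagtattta
Slc2a2: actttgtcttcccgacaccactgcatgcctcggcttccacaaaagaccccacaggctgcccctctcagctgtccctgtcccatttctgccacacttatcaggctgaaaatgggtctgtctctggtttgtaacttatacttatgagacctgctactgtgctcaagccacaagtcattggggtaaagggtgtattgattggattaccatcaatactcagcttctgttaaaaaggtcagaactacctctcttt
G6pc: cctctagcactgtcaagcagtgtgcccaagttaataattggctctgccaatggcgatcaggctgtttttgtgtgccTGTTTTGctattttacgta
Pklr: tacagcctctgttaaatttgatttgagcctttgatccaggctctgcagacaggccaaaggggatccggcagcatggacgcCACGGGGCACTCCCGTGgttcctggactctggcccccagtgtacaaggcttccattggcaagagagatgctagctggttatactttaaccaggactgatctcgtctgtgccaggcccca

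Counted from the RefSeq start, the TGACG match of Pck1 lay at -90 to -86 and the TGTTTTG match of G6pc at -174 to -168. The match of Pklr lay at -170 to -154 of the downstream of its starts. Over 32851 RefSeq promoters of 250 bases, TGACG was present in 17.8%, TGTTTTG in 5.56% and the carbohydrate response element consensus in 0.0974%. The full cyclic AMP response element TGACGTCA (1.55% of promoters) and the forkhead motif GTAAACA (3.17%) matched in 0 of the listed promoters of the 7 genes. The E-box CACGTG (6.02%) matched in Pcx alone, at -248 to -243, and TGACG overlaps TGACGTCA. TGTTTTG and the carbohydrate response element consensus were added after the sequences had been read. A match of letters is a description of the sequence and not a measured site. The promoter listed for Ppargc1a starts at position 51567725 of chromosome 5. Read along the gene, TGACG matched in it as its reverse complement, at -49 to -45.

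The libraries were alike in size. Their depth, estimated from the lowest values of long single-transcript genes, was between 18.8 and 20.1 M fragments, and median-ratio factors, which put libraries on a common scale, lay between 0.985 and 1.04. For 6 members, all above 100 FPKM, roughly 5700 to 56000 fragments lay behind each value. Ppargc1a rested on roughly 200 to 330 fragments in a liver. As a check of the tissue, 7 of 8 hepatocyte markers were expressed, with sums between 29602 and 37624 FPKM, and Alb was listed at 0 in all 4 livers, which in this kind of table can be a failed estimate. All 5 kidney markers and 5 of 7 pancreas markers were listed at 0 in every liver. Kidney and pancreatic islets also express some of the 7 genes, and as for Alb, these zeros do not show that a transcript was absent. The acute phase list summed to 6239, 15624, 5035 and 7281 FPKM in livers 1 to 4, so liver 2 stood apart in this respect.

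Expression of the mitochondrial entry enzyme was even between animals. Pcx (XLOC_010265, chromosome 19, 4510472 to 4621752) was at 234, 215, 233 and 255 FPKM in livers 1 to 4, with a mean of 234 ± 16.2 FPKM (SD, n = 4). Liver 2 was the lowest and liver 4 the highest, 1.18-fold apart. The deposited span of Pcx overlaps that of Lrfn4, which had 0.596 ± 0.326 FPKM (SD, n = 4). The mitochondrial pyruvate carrier genes Mpc1 and Mpc2, which bring pyruvate to the carboxylase and were singled out for this role, lay between 140.2 and 176 FPKM and between 139.9 and 186 FPKM.

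Pck1 and Fbp1 were the most abundant members. Pck1 (XLOC_012002, chromosome 2, 173153073 to 173159253) was at 1135, 903, 767 and 873 FPKM in livers 1 to 4, with a mean of 919 ± 155 FPKM (SD, n = 4). Liver 1 was the highest, 1.26-fold above the next, and liver 3 the lowest, 1.14-fold below the next. Without liver 1 the SD of its log2(FPKM + 1) fell from 0.23 to 0.12. Fbp1 (XLOC_005817, chromosome 13, 62864753 to 62888282) was at 963, 1029, 959.7 and 966 FPKM, with a mean of 979 ± 33.2 FPKM (SD, n = 4). Liver 2 was slightly higher and the other 3 livers lay close together, within 1.01-fold. The coefficient of variation of Fbp1 was 3.39%, against 16.8% for Pck1. On the log2(FPKM + 1) scale, 2.75% of expressed genes had a smaller SD than Fbp1. That SD was 0.05 as deposited, 0.09 with libraries brought to a common sum and 0.0046 without liver 2.

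G6pc, the last enzyme of the pathway, varied most. G6pc (XLOC_003173, chromosome 11, 101367730 to 101377903) was at 131, 134, 242 and 149 FPKM in livers 1 to 4, with a mean of 164 ± 52.6 FPKM (SD, n = 4). Liver 3 was 1.62-fold above the next highest, and the range over all 4 livers was 1.85-fold. Without liver 3 the range was 1.14-fold. The SD of log2(FPKM + 1) was 0.41, and 96.9% of expressed genes had a smaller one. Slc37a4, the transporter that carries glucose 6-phosphate to the phosphatase inside the endoplasmic reticulum and was singled out for this role, had 111 ± 8.36 FPKM (SD, n = 4), at 119 FPKM in liver 3 and 117 FPKM in liver 4.

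The transporter, at a mean like that of G6pc, and the glycolytic enzyme, at a higher mean, both varied less than G6pc. Slc2a2 (XLOC_013109, chromosome 3, 28697903 to 28728360) was at 158, 156, 131 and 168 FPKM in livers 1 to 4, with a mean of 153 ± 15.6 FPKM (SD, n = 4). Liver 3 was the lowest, 1.19-fold below the next, and without it the range was 1.07-fold in place of 1.28-fold. Pklr (XLOC_013287, chromosome 3, 89136142 to 89146594) was at 235, 223, 254 and 220.1 FPKM, with a mean of 233 ± 15.5 FPKM (SD, n = 4). Here liver 3 was the highest, 1.08-fold above the next. The row of Pklr starts at the upstream of its RefSeq starts and does not separate the liver form from the red blood cell form, which differ in their first exon. Erythroid markers (2 of 5 symbols were found, in 3 rows) summed to 1076, 829, 427 and 705 FPKM in livers 1 to 4. Both rows of the globin gene Hba-a1, which carry this sum, were lowest in liver 3, whereas Alas2, the erythroid enzyme of heme synthesis, was highest there, at 55.8, 43.8, 64.0 and 57.0 FPKM in livers 1 to 4. Their part in the level of Pklr was not tested.

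Ppargc1a was low. It (XLOC_016512, chromosome 5, 51454249 to 51553921) was at 2.04, 2.75, 1.60 and 2.05 FPKM in livers 1 to 4, with a mean of 2.11 ± 0.477 FPKM (SD, n = 4). Liver 2 was the highest and liver 3 the lowest, 1.72-fold apart, while livers 1 and 4 were nearly equal. Of the expressed genes, 14.8% had a lower mean. The libraries with the highest Ppargc1a, Pck1 and G6pc were 3 different ones, namely livers 2, 1 and 3.

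**Figure D1:**
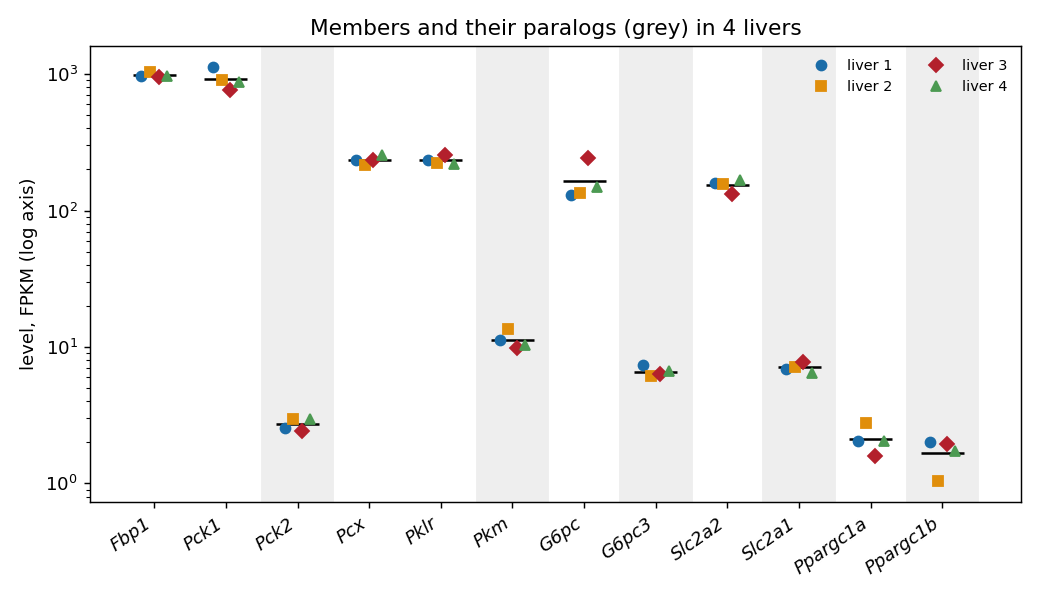
Level of each member and, on grey, of its paralog with a value above 0 in every liver, in FPKM on a log axis. Each symbol is 1 liver and each bar the mean of 4. Pck1 and Fbp1 lie between 767 and 1135 FPKM, Pcx, Pklr, G6pc and Slc2a2 between 131 and 255 FPKM, and Ppargc1a near 2 FPKM beside its paralog.

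Ordered by mean, the levels ran from Fbp1 through Pck1, Pcx, Pklr, G6pc and Slc2a2 to Ppargc1a. The ranges of 2 of the 6 neighbouring pairs did not overlap. The lowest Pck1 value was 3.01-fold above the highest Pcx value, and the lowest Slc2a2 value was 47.8-fold above the highest Ppargc1a value. Fbp1 exceeded Pck1 in 3 of 4 livers, with Pck1 higher in liver 1. Pklr exceeded G6pc in all 4 livers, although the highest G6pc value was above the lowest Pklr value. Pcx and Pklr could not be ordered, since Pcx was higher in 1 of 4 livers. G6pc was above Slc2a2 in liver 3 and below it in the other livers. Livers give 4 paired values, for which an exact two-sided sign-flip test cannot go below p = 0.125, so no test between genes was run.

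The members were compared with their paralogs because the values are scaled per length. In the liver the cytosolic carboxykinase dominated. Pck2, the mitochondrial form, had 2.73 ± 0.273 FPKM (SD, n = 4), and Pck1 made up between 99.66% and 99.78% of the summed level of both. G6pc3, a phosphatase expressed in many tissues, had 6.60 ± 0.526 FPKM (SD, n = 4), and G6pc made up 94.7% to 97.4% of the sum, with the highest share in liver 3. The islet form G6pc2 and the muscle form Fbp2 had no more than 0.0634 and 0.313 FPKM in any liver, and each was listed at 0 in at least 1.

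Pkm, the pyruvate kinase of most other cells, had 11.2 ± 1.68 FPKM (SD, n = 4), 16.5 to 26.0 times less than Pklr. It was highest in liver 2, at 13.6 FPKM. Slc2a1, the widely expressed transporter GLUT1, had 7.08 ± 0.562 FPKM (SD, n = 4), 16.9 to 26.1 times less than Slc2a2. It was highest in liver 3, where Slc2a2 was lowest. Whether these levels came from hepatocytes or other cells was not tested, and in whole tissue fewer cells of a type and less RNA per cell cannot be told apart. Macrophage markers summed to 68.0, 82.3, 60.6 and 83.5 FPKM and endothelial markers to 41.9, 54.5, 46.7 and 53.3 FPKM in livers 1 to 4. Stellate cell markers summed to 231, 292, 188 and 213 FPKM and cholangiocyte markers to 229, 201, 187 and 210.4 FPKM. Spp1 carried most of the cholangiocyte sum, with 214 FPKM in liver 1. The median deviation of the cholangiocyte list was -0.02, 0.10, -0.06 and -0.04 in livers 1 to 4. Pancreas markers did not exceed 6.00 FPKM in sum, adipocyte markers 4.49 FPKM and B and T cell markers 2.67 FPKM in any liver, and kidney markers were at 0.

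Ppargc1a was the exception among the paralog pairs. Ppargc1b, a related coactivator, was at 2.02, 1.04, 1.94 and 1.73 FPKM in livers 1 to 4, with a mean of 1.68 ± 0.447 FPKM (SD, n = 4). Ppargc1a was 2.65 times Ppargc1b in liver 2 and 0.821 times Ppargc1b in liver 3. Liver 2 thus had the highest Ppargc1a and the lowest Ppargc1b.

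The spread of the 7 genes was set against that of all expressed genes. A range of at least 2-fold over the livers was found for 0 of 7 members, and for 6.54% of expressed genes (3.84% of those that reached 50 FPKM). A limit of 1.5-fold, added because no member reached 2-fold, was passed by 2 of 7, G6pc and Ppargc1a, and by 28.4% of expressed genes. For genes that reached 50 FPKM on average, the 1.5-fold limit was passed by 14.4%, and G6pc was the 1 member of that level to pass it. The count over all members was 1 without liver 2 and 0 without liver 3, where 19.3% and 16.3% of the 10541 genes passed the limit. The median SD of log2(FPKM + 1) was 0.15 for the members and 0.16 for all expressed genes. Above the latter lay 3 members, G6pc, Pck1 and Ppargc1a. Without liver 3 the SD of G6pc was 0.10, without liver 1 that of Pck1 0.12, and without liver 2 that of Ppargc1a 0.13. The medians of the 10541 genes were then 0.14, 0.17 and 0.15.

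**Figure D2:**
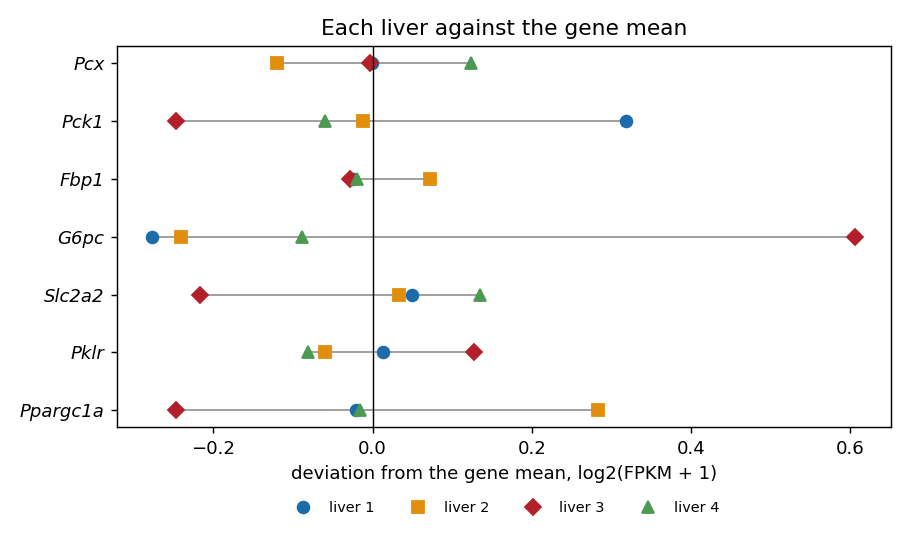
Deviation of each liver from the mean of the gene on the log2(FPKM + 1) scale, for the 7 members in the order enzymes of gluconeogenesis, transporter, pyruvate kinase and coactivator. Liver 3 (diamonds) is at 0.61 for G6pc and at -0.25 for both Pck1 and Ppargc1a, and the 4 livers almost coincide for Fbp1.

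Liver 3 held the lowest or highest value of 6 of 7 members, the lowest for Pck1, Fbp1, Slc2a2 and Ppargc1a and the highest for G6pc and Pklr. Liver 3 was likewise an extreme for 58.1% of expressed genes, the lowest for 31.4% and the highest for 26.8%. With median-ratio scaling liver 3 was an extreme for 5 of 7 members and for 59.4% of expressed genes, since the lowest Fbp1 value then fell in liver 4. Liver 1 was an extreme for 2 of 7 members (38.6% of expressed genes), liver 2 for 3 (51.9%) and liver 4 for 3 (51.3%). For 2 of 7 members, G6pc and Fbp1, 1 liver lay so far from the other 3 that the gap passed a 95% critical value for an outlier, as it did for 5.64% of expressed genes. On the log2(FPKM + 1) scale this held for 1 of 7, Fbp1, and for 5.46% of expressed genes. The promoters printed above are those of 4 members of this group, of which Pck1 and Slc2a2 were low and G6pc and Pklr high in liver 3.

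The libraries also differed in how levels moved with base composition, and liver 3 most. Expressed genes were divided into 5 equal bins by the GC content of their longest transcript in GENCODE. In liver 3 the median deviation from the gene mean ran from -0.12 in the bin of lowest GC to 0.11 in that of highest GC, and in liver 2 it ran from 0.06 to -0.07. The transcripts of Slc2a2 and Ppargc1a, with 41.7% GC each, were in bin 1, the lowest. Relative to genes of the same bin, Slc2a2 was at -0.10 in place of -0.22 in liver 3, and Ppargc1a at -0.13 in place of -0.25. Pklr, in bin 4, was at 0.08 in place of 0.13.

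For 4 of the 7 members, G6pc, Pck1, Pcx and Fbp1, the deviation in liver 3 was larger relative to the bin. The share of all expressed genes for which this held was not computed, so the count has no background. The G6pc transcript, with 47.7% GC, was in bin 2, where liver 3 was lower on the whole, and G6pc was at 0.67 relative to its bin against 0.61 before. Pck1, with 53.0% GC, was at -0.30 in liver 3 against -0.25 before, and at 0.33 in liver 1 against 0.32. Pcx was at -0.11 in liver 3 against 0.00 before, and Fbp1 at -0.08 against -0.03. The median over the 7 members in liver 3 was -0.10 relative to the bins and -0.03 before.

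**Figure D3:**
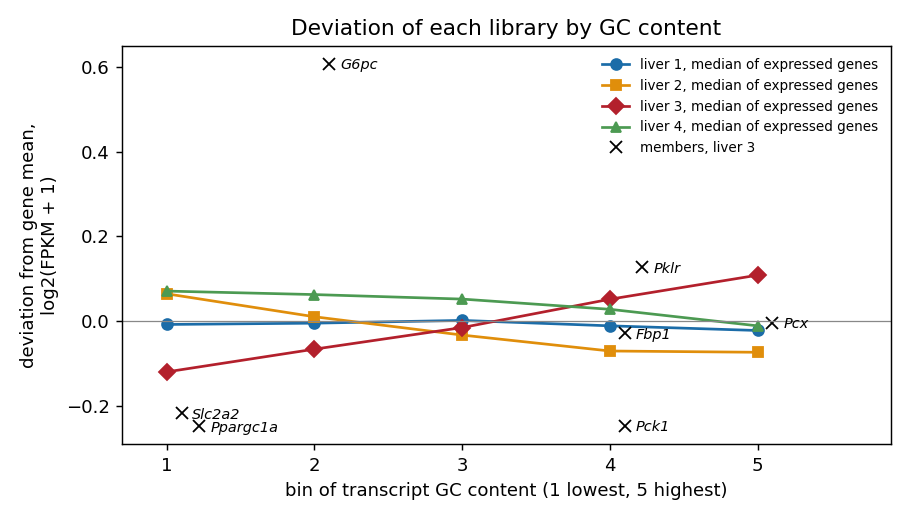
Median deviation of expressed genes from the gene mean on the log2(FPKM + 1) scale in each of 5 bins of transcript GC content, 1 line per liver, with the members in liver 3 as crosses. The line of liver 3 rises from -0.12 to 0.11, Slc2a2 and Ppargc1a lie below its low end, and G6pc lies far above it.

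Enzymes that work against each other were compared as ratios within a library, which do not depend on how libraries are scaled. The ratio of Pck1 to Pklr was 4.83, 4.04, 3.02 and 3.97 in livers 1 to 4, with a mean of 3.96 ± 0.742 (SD, n = 4). It was highest in liver 1 and lowest in liver 3, 1.60-fold apart. The ratio of Fbp1 to Pfkl, the liver phosphofructokinase at 13.3 ± 1.11 FPKM, was 73.1, 69.1, 77.7 and 75.4, with a mean of 73.8 ± 3.65 (each SD, n = 4). This ratio was steadier, with a range of 1.12-fold. The ratio of G6pc to Pck1, added after the values had been seen, was 0.115, 0.149, 0.316 and 0.171 in livers 1 to 4. It spanned 2.74-fold, and 1.48-fold without liver 3. Since liver 1 had the lowest G6pc and the highest Pck1, and liver 3 the reverse, this span is the product of the ranges of both genes.

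**Figure D4:**
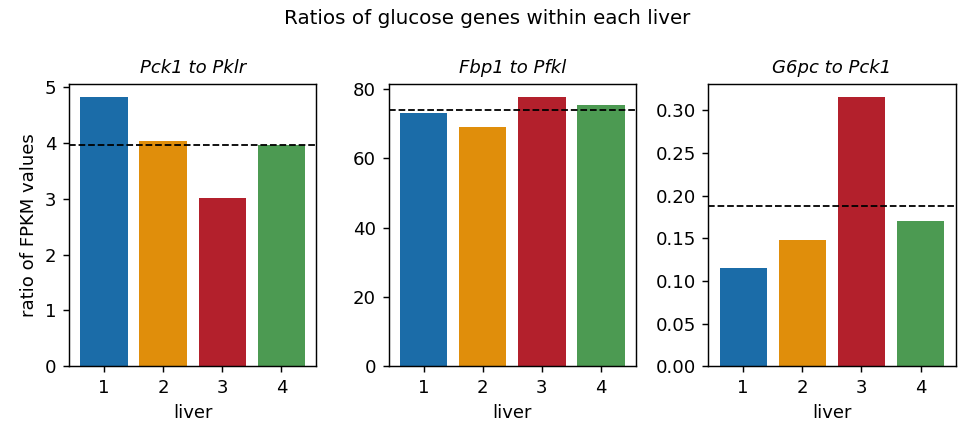
Ratio of the FPKM values of a pair of genes in each liver (bars, axis from 0), with the mean of 4 livers as a dashed line. Liver 3 has the lowest ratio of Pck1 to Pklr, at 3.02, and the highest ratio of G6pc to Pck1, at 0.316, while the ratio of Fbp1 to Pfkl stays between 69.1 and 77.7.

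Genes with the most similar pattern over the 4 livers were found by the root mean square difference of their deviations on the log2(FPKM + 1) scale, among the 6532 genes that averaged 5 FPKM or more. For G6pc the closest included Ppan (difference 0.03), a ribosome assembly factor, and Ptms (0.06), which encodes parathymosin. Ppan was at 6.25, 6.32, 12.8 and 7.09 FPKM in livers 1 to 4. For Ppargc1a the closest were Lims1, Rheb and Tm6sf2, each at a difference of 0.02. Tm6sf2, a gene of lipoprotein secretion, was at 19.9, 25.5, 17.0 and 19.6 FPKM. With 4 livers and 6532 genes, a close match is no sign of a shared role.

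The other enzymes that gluconeogenesis needs had a spread near that of all expressed genes. Of 20 symbols 19 were in the table and 17 were expressed, with a median SD of 0.15 on the log2 scale (0.16 for all expressed genes). A 2-fold range was found for 0 of 17, and for 6.54% of expressed genes. Gpd1, which brings glycerol 3-phosphate into the pathway, had the largest spread, at 214, 139, 185 and 201 FPKM in livers 1 to 4, with liver 2 the lowest. Gpt, which turns alanine into pyruvate, was at 192, 196, 231 and 265 FPKM. In liver 4, 15 of 17 genes exceeded their mean (60.8% of expressed genes did). With median-ratio scaling 12 did (49.99%), and 10 did with libraries brought to a common sum (38.1%).

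Genes of glycolysis and of pyruvate oxidation had median SDs of 0.17 and 0.16, beside 0.16 for all expressed genes. Of 15 expressed glycolytic genes 0 had a 2-fold range, and 6.54% of expressed genes did. Tkfc, which phosphorylates glyceraldehyde in fructose breakdown, was at 292, 178, 336 and 201 FPKM in livers 1 to 4, with livers 1 and 3 high and livers 2 and 4 low, 1.88-fold from end to end. In the pyruvate list 1 of 11 had a 2-fold range, near the share of expressed genes. This was Pdk4, the kinase that closes pyruvate dehydrogenase in fasting, at 3.73, 5.66, 3.36 and 1.58 FPKM, with liver 2 the highest and liver 4 the lowest. Without liver 4, 0 of 11 had a 2-fold range (4.21% of expressed genes). Of the hexose transporters beside Slc2a2, 6 of 9 were expressed, 0 of 6 had a 2-fold range (6.54% of expressed genes), and Slc2a9, a urate and hexose transporter, had the largest SD on the log2 scale, at 14.8 ± 2.10 FPKM (SD, n = 4).

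The median spread of the regulators was larger than that of the enzymes. Of 26 transcriptional regulators 24 were expressed, 5 of 24 had a 2-fold range and 13 of 24 a 1.5-fold range, against 6.54% and 28.4% of expressed genes, and the median SD was 0.23. Without liver 3, 3 of 24 had a 2-fold and 6 of 24 a 1.5-fold range, against 3.82% and 16.3% of the same 10541 genes, and the median SD was 0.18. Onecut1, which encodes the hepatocyte factor HNF6, was at 1.25, 6.20, 23.7 and 7.33 FPKM in livers 1 to 4, 19.0-fold from end to end with liver 3 the highest and liver 1 the lowest. Nr0b2, which encodes the corepressor SHP, was at 61.1, 34.3, 36.1 and 15.7 FPKM. Cebpa was at 142, 181, 293 and 160.0 FPKM, with liver 3 the highest, and Cebpb at 132, 273, 213 and 123 FPKM, with liver 2 the highest. Both encode C/EBP factors that bind the Pck1 promoter. Mlxipl, which encodes the carbohydrate-sensing activator ChREBP of Pklr, was at 53.0, 48.2, 79.9 and 38.7 FPKM, with liver 3 the highest. Liver 3 was the highest for 10 of the 24 regulators and for 26.8% of expressed genes. Of the members it was the highest for G6pc and Pklr and the lowest for Pck1, Fbp1, Slc2a2 and Ppargc1a.

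Of the 24 regulators, 20 exceeded their mean in liver 3 (47% of all expressed genes did), and the median deviation was 0.18. The count was 20 with median-ratio scaling (49.9% of expressed genes) and 21 with a common sum (55.1%). Their transcripts had a median GC content of 55.7%, against 49.8% for expressed genes. Relative to genes of the same GC bin, 19 of 24 were above 0 in liver 3, with a median of 0.09 in place of 0.18. Since the bin median is taken off, as many expressed genes lie above 0 as below on this measure. Hnf4a, a factor that activates both G6pc and Pck1, was at 93.9, 104, 156 and 118 FPKM in livers 1 to 4. Its deviation in liver 3 was 0.43, and 0.37 relative to its GC bin. Foxo1 and Crtc2, the insulin-inhibited and glucagon-activated partners at gluconeogenic promoters, singled out for these roles, had 12.3 ± 1.29 and 11.2 ± 1.90 FPKM (each SD, n = 4).

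**Figure D5:**
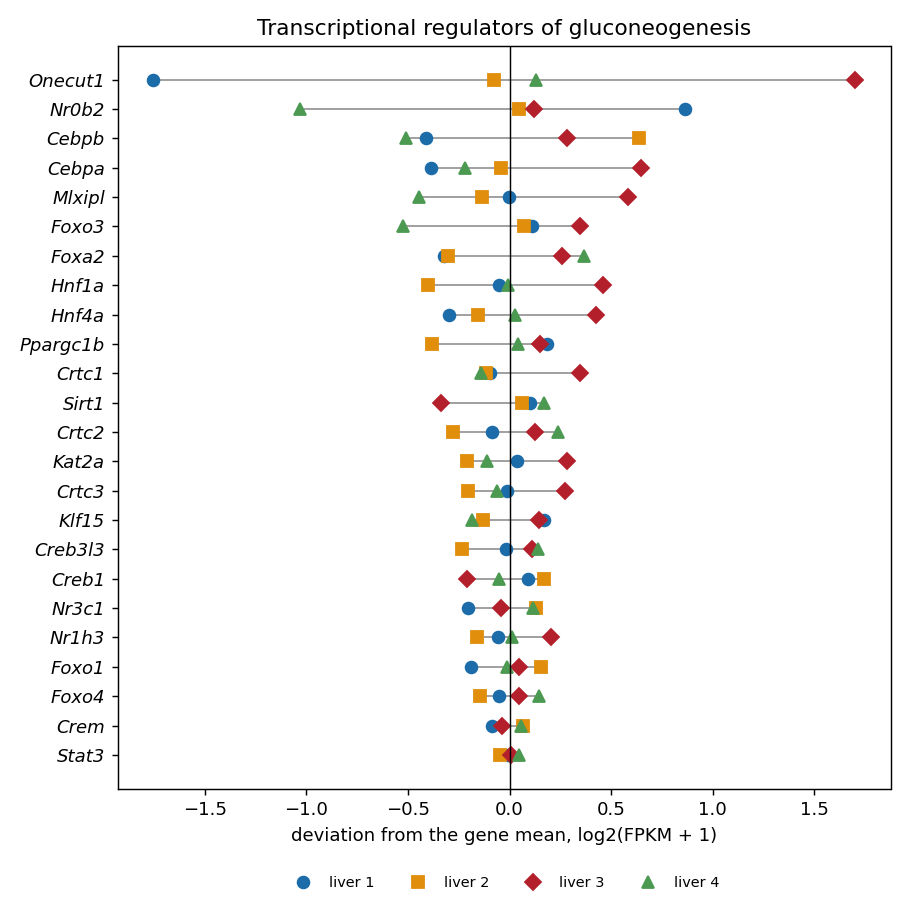
Deviation of each liver from the gene mean on the log2(FPKM + 1) scale for the 24 expressed regulators, ordered by spread. Liver 3 (diamonds) lies to the right of 0 for 20 of 24 genes, Onecut1 spans the widest range, and Stat3 the narrowest.

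Of 16 expressed genes for hormone receptors and their signalling proteins, 2 had a 2-fold range (6.54% of expressed genes), and the median SD was 0.18. Without liver 3 the count was 0 of 16 (3.82%), and without liver 1 it was 1 (5.08%). Among them was Irs2, an insulin receptor substrate, at 3.95, 3.54, 1.87 and 2.27 FPKM in livers 1 to 4. It was lowest in liver 3, as was Pck1. The glucagon receptor Gcgr and the insulin receptor Insr, singled out for their roles, had 117 ± 9.18 and 10.5 ± 1.19 FPKM (each SD, n = 4).

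Of 14 genes known to be induced by fasting, 5 had a 2-fold range, 2 did without liver 4 and 3 without liver 1, against 6.54%, 4.21% and 5.08% of expressed genes. In livers 1 to 4, 9, 8, 8 and 5 of 14 exceeded their mean, beside 47.2%, 45.1%, 47.0% and 60.8% of expressed genes. With median-ratio scaling 4 of 14 did in liver 4, beside 49.99%. Igfbp1, which is repressed by insulin, was at 59.3, 104, 19.6 and 20.1 FPKM in livers 1 to 4, 5.31-fold from end to end with livers 1 and 2 above livers 3 and 4. Tat, an enzyme of tyrosine breakdown induced by glucocorticoids and glucagon, was at 780.2, 522, 505 and 335 FPKM, highest in liver 1, as was Pck1. Lpin1 was at 33.5, 54.3, 44.7 and 16.4 FPKM, with liver 4 the lowest.

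Of 12 genes known to be induced by feeding, 9 exceeded their mean in liver 3, where the median deviation was 0.31, and 2 did in liver 4, where it was -0.30. Over all expressed genes 47.0% and 60.8% did. Relative to GC bins the medians were 0.20 and -0.34. Fasn was at 237, 176, 286 and 132 FPKM and Acly at 111, 89.9, 119 and 58.4 FPKM in livers 1 to 4. The other 3 genes were below their mean in liver 3. Egr1, an immediate early transcription factor with the largest SD of the list, was at 5.41, 6.28, 3.04 and 1.89 FPKM, highest in liver 2. Me1 and Txnip, named here because they completed this count, were lowest in liver 3, at 93.3 and 44.9 FPKM. The 2-fold limit was passed by 5 of 12, by 2 without liver 3 and by 1 without liver 4, against 6.54%, 3.82% and 4.21% of expressed genes.

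Position in the lobule and time of day were given as values only, since Pck1 is a periportal gene and Pck1 and G6pc follow the clock. The periportal marker list, Pck1 included, summed to 5337, 5058, 5866 and 5940.4 FPKM in livers 1 to 4. Pck1 itself gave 1135, 903, 767 and 873 FPKM of these sums. The median deviation of the periportal list, Pck1 included, was -0.10, 0.01, 0.14 and 0.05. The pericentral list summed to 6365, 5311, 5669 and 8926 FPKM. Cyp2e1 carried most of the pericentral sum, with 7788 FPKM in liver 4, while the median deviation of the list was 0.15, -0.31, -0.08 and 0.09 in livers 1 to 4. Among 12 expressed clock genes 2 had a 2-fold range (6.54% of expressed genes), and 0 did without liver 1 (5.08%). Nr1d1, a clock repressor, was at 52.7, 39.3, 25.4 and 23.9 FPKM, and Cry1 at 2.88, 4.47, 5.85 and 6.03 FPKM. Liver 1 had the highest Nr1d1 and the lowest Cry1. The part of either in the differences of Pck1 and G6pc was not tested.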

How the data were processed

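Per the submitters' processing notes, the tools included FastQC 0.10.1, Trim Galore 0.6.3, cutadapt, STAR 2.7.6a and Cufflinks 2.2.1, with build mm10. Per the labels' protocols, libraries were poly(A)-enriched. The deposited values were taken as FPKM, which the authors made; the header does not name the unit. Spans were compared with RefSeq (GRCm38) for 22485 symbols, of which 99.8% overlapped, and 1 was added to each start. The 4 columns were matched through the sample descriptions, with 0 left over. Expressed genes averaged 1 FPKM or more. Spread was the SD of log2(FPKM + 1), on which differences of low genes come out too small. Depth was estimated from genes with 1 transcript above 800 bases in GENCODE vM21 (FPKM times length less 200, median between 25 and 75). No test between groups was possible with 1 group. Whether the 4 livers share a litter or cage is not given in the sources used here.

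The members and the 22 lists were chosen with earlier results of these data known. Genes named beside members and paralogs were the opposing enzymes, up to 4 per list with the largest SD, and, for members past 1.5-fold (2-fold was planned, and none passed it), the 3 closest in pattern. Others are marked as singled out. Some genes that these rules chose are not reported here. The planned identity between paralogous proteins was not computed. Functions were tested on simulated data. Alternatives were scaling to a common sum or by median ratios, pseudocounts of 0.1 and 5, other minimums, and leaving out each liver. Python 3.11.15, pandas 2.3.3 and numpy 2.4.6 were used.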

Additional observations from a re-analysis of the deposited data

Results flagged for a closer look

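A library apart from the other 3 was looked for in the values of the members, their expressed paralogs, the opposing enzymes and the ratios, as the distance of the outermost value to its neighbour, divided by the whole range. Chance puts about 1 in 20 genes past the 95% critical value, and 5.64% of expressed genes passed it here on FPKM values. Of the 18 values checked 2 passed. G6pc passed with 0.835, because liver 3 was at 242 FPKM and the others between 131 and 149 FPKM. On the log2(FPKM + 1) scale its ratio was 0.787 and did not pass. After scaling by median ratios it passed on both scales, with 0.891 and 0.856. Fbp1 passed with 0.911, because liver 2 was at 1029 FPKM and the others between 959.7 and 966 FPKM, a total range of 1.07-fold. After scaling by median ratios the ratio of Fbp1 was 0.657 and did not pass, while that of Slc2a2, low in liver 3, rose from 0.685 to 0.887 and did. With libraries brought to a common sum G6pc passed with 0.946, Pcx, set apart by liver 2, with 0.856, and Slc2a2 with 0.842. Fbp1 then had 0.515 and did not pass. The share of all expressed genes past the limit was not computed under either scaling. These passes therefore cannot be read as particular to the members.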

How the results depend on the processing

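The number of members with a 2-fold range was 0 under every scaling and without any 1 liver, and that with a 1.5-fold range was between 0 and 2 without 1 liver. The mean ratios of opposing enzymes moved by less than their SD in all alternatives run. The median SD of the members was 0.10 with a pseudocount of 5, and between 0.10 and 0.15 without 1 liver. The share of expressed genes with a 2-fold range was 10.7% with libraries scaled to a common, larger sum (more genes then pass the minimum), 19.9% with a minimum of 0.1 FPKM, 21.8% with none, 2.95% with a minimum of 5 FPKM, and between 3.89% and 5.03% without 1 liver, with the minimum applied to the livers kept. Between 2 and 4 neighbouring pairs of members did not overlap without 1 liver, the 4 without liver 3. No paired analysis was possible because the labels give 1 group. Depth limits Ppargc1a, G6pc2 and Fbp2, which rest on few fragments.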
